A study of Rattus norvegicus with 39 samples.

Results

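Drd1 and Drd2, the genes of the dopamine D1 and D2 receptors, were followed as 2 of the 23978 genes in a count table of polyribosome-bound mRNA from the rat nucleus accumbens (NAc). They were chosen by their Ensembl identifiers (ENSRNOG00000023688 for Drd1 and ENSRNOG00000008428 for Drd2). No measured value entered that rule, but earlier results of these data were known when they were chosen. Both passed the filter on low counts in every comparison.

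The samples were 39 immunoprecipitation (IP) libraries, 1 per rat, from adult female Long Evans rats. All rats were heterozygous for a transgene that expresses Cre recombinase under Drd1a or Drd2 regulatory sequence (D1-Cre or D2-Cre), and all received a Cre-dependent RiboTag virus in the NAc. The virus puts an HA tag on a ribosomal protein of the cells that express Cre, so that an HA antibody pulls down their polyribosomes. Rats in proestrus (Pro) or diestrus (Di) received 6 injections of saline (sal) or of 10 mg/kg racemic ketamine (ket), 1 every 4 or 5 days, and tissue was taken 4 days after the last, 30 min after return to the test context. Each of the 8 groups held 5 libraries, apart from 4 in proestrus D2-Cre rats given ketamine, where the authors left 1 out. The 20 D1 and 19 D2 libraries come from different rats. The ketamine-treated rats had been selected by the authors for a rise in locomotor activity over treatment, so they do not stand for all treated rats. Cre-expressing cells are not defined by projection or morphology: a D2-Cre pulldown can include cholinergic interneurons, which also use the Drd2 gene.

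Dopamine acts in the NAc on medium spiny neurons (MSNs), most of which express mainly 1 of the receptors. The D1 receptor couples to Golf and raises cAMP through adenylyl cyclase, whereas the D2 receptor couples to Gi/o, lowers cAMP and opens potassium channels through Gβγ. Drd1 and Drd2 are the standard markers of the D1-MSN and D2-MSN classes, together with Adora2a, an adenosine receptor gene, in D2-MSNs. The Drd2 gene is spliced into a long and a short receptor form, which counts per gene do not separate.

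Total counts ran from 2396517 to 43224256 per library, with a median of 20494896. The lowest total belonged to library 39 (diestrus D2, saline) and the highest to library 22 (proestrus D2, ketamine). Drd1 counts were 8018 to 16203 in D1 libraries and 113 to 1692 in D2 libraries, and Drd2 counts were 1442 to 2403 in D1 libraries and 985 to 21413 in D2 libraries. In library 39, the shallowest, 113 counts put Drd1 at 47.1 CPM with an exact Poisson 95% interval of 38.8 to 56.6, which covers counting error only. Levels are given as CPM, counts scaled to the library size, with TMM normalization over all libraries. Transcript length was not taken into account, so the level of Drd1 is not compared with that of Drd2.

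Drd1 was high in every D1 library. In saline-treated proestrus D1 libraries it lay at 500, 684, 668, 617 and 480 CPM, and after ketamine in proestrus at 590, 534, 580, 527 and 577 CPM. In saline-treated diestrus D1 libraries it lay at 593, 456, 608, 701 and 565 CPM, and after ketamine in diestrus at 590, 668, 503, 591 and 644 CPM. The 4 groups covered much the same range, and the spread was smallest in ketamine-treated proestrus rats, with a mean of 562 ± 29.0 CPM (SD, n = 5) against 590 ± 94.7 (SD, n = 5) in proestrus rats given saline.

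In D2 libraries, Drd1 was detected in all 19 but at a much lower level. It lay at 45.4, 49.2, 70.3, 50.8 and 49.5 CPM in saline-treated proestrus D2 libraries and at 50.3, 39.4, 42.9 and 41.7 CPM after ketamine in proestrus. In diestrus D2 libraries it lay at 66.5, 46.1, 37.5, 47.7 and 47.1 CPM with saline and at 50.7, 57.3, 45.0, 50.5 and 41.3 CPM with ketamine. The 2 highest values, 70.3 and 66.5 CPM, belonged to libraries 21 and 7, and the remaining saline-treated D2 libraries lay at or below 50.8 CPM. No D2 library came near the lowest D1 library, at 456 CPM.

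Drd2 had the opposite arrangement. In D2 libraries it lay at 459, 416, 420, 508 and 387 CPM in proestrus with saline, and at 358, 498, 368 and 388 CPM in proestrus with ketamine. In diestrus it lay at 453, 424, 468, 462 and 410 CPM with saline and at 375, 376, 483, 230 and 473 CPM with ketamine. The value of 230 CPM belonged to library 32, the lowest of the 19 D2 libraries, and the second lowest lay at 358 CPM.

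In D1 libraries, Drd2 remained at a lower but substantial level. It lay at 76.1, 103, 99.1, 89.9 and 88.7 CPM in proestrus with saline and at 91.0, 88.4, 93.2, 86.1 and 85.5 CPM in proestrus with ketamine. In diestrus D1 libraries it lay at 98.0, 66.4, 84.8, 92.0 and 84.1 CPM with saline and at 85.1, 98.8, 71.0, 101 and 100.2 CPM with ketamine. The highest D1 library, at 103 CPM, was below the lowest D2 library, at 230 CPM.

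**Figure D1:**
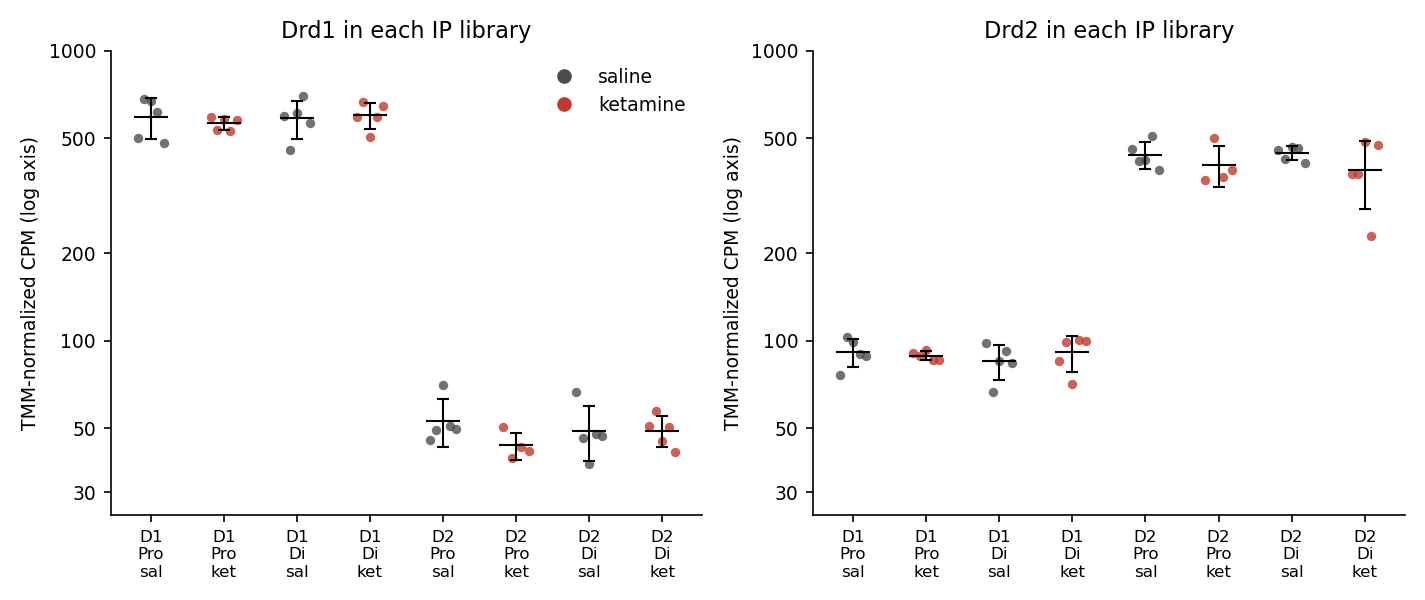
TMM-normalized CPM of Drd1 (left) and Drd2 (right) in each of the 39 IP libraries on a log axis, by Cre line, cycle stage and treatment; points are libraries, horizontal bars are group means and error bars are SDs (n = 5, or 4 in D2 Pro ket). Each receptor separates the Cre lines completely, and within a line the saline and ketamine groups of both stages overlap.

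Ordered by their means, the groups fell into a high and a low block for each gene. For Drd1 the order was 599 ± 63.5 (diestrus D1, ketamine), 590 ± 94.7 (proestrus D1, saline), 584 ± 88.2 (diestrus D1, saline) and 562 ± 29.0 CPM (proestrus D1, ketamine), followed by 53.0 ± 9.84 (proestrus D2, saline), 49.0 ± 10.6 (diestrus D2, saline), 48.9 ± 6.09 (diestrus D2, ketamine) and 43.6 ± 4.69 CPM (proestrus D2, ketamine). For Drd2 the order was 443 ± 25.1 (diestrus D2, saline), 438 ± 46.8 (proestrus D2, saline), 403 ± 64.8 (proestrus D2, ketamine) and 387 ± 102 CPM (diestrus D2, ketamine), followed by 91.4 ± 10.4 (proestrus D1, saline), 91.2 ± 13.0 (diestrus D1, ketamine), 88.8 ± 3.25 (proestrus D1, ketamine) and 85.1 ± 11.9 CPM (diestrus D1, saline). All are means ± SD over 5 libraries, or 4 for proestrus D2 with ketamine. Neighbours within a block differed by less than the larger of their SDs, and the only step beyond that was the one between Cre lines.

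How completely did each pulldown separate the receptors? Among saline-treated rats, Drd1 was lower in D2 than in D1 libraries (log2 fold change -3.60 with a standard error of 0.0966, adjusted p = 2.93e-14, edgeR quasi-likelihood test over 10 D2 and 10 D1 libraries with cycle stage and 2 surrogate variables in the model). The D2 libraries held 8.26% of the Drd1 level of D1 libraries (95% interval 7.17% to 9.51%). Drd2 was higher in D2 libraries (log2 fold change 2.30 with a standard error of 0.0506, adjusted p = 4.04e-18, same edgeR test), and D1 libraries held 20.3% of the D2 level (18.9% to 21.8%). Both genes were therefore called, against 26.6% of the 13689 genes tested, and neither gene's D1 and D2 libraries overlapped, which held for 1.64% of genes. By absolute log2 fold change Drd1 ranked 2 and Drd2 ranked 12 among the genes tested. Because the samples are bulk pulldowns, fewer tagged cells of a type and less RNA per cell cannot be told apart.

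The same separation stood after ketamine. Drd1 had a log2 fold change of -3.68 between 9 D2 and 10 D1 libraries (standard error 0.0660 and adjusted p = 5.51e-18, edgeR) and Drd2 one of 2.09 (standard error 0.0497, adjusted p = 1.04e-17, edgeR). D2 libraries held 7.81% of the D1 level of Drd1 (95% interval 7.10% to 8.60%), and D1 libraries held 23.5% of the D2 level of Drd2 (21.8% to 25.2%). In this comparison 20.2% of 13850 genes were called and 1.34% had groups without overlap. Without library 32, the Drd2 value was 2.16.

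Within each stage and treatment both genes were again called and again free of overlap. In proestrus with saline the log2 fold changes were -3.64 for Drd1 (standard error 0.123) and 2.18 for Drd2 (0.0688), and 5.67% of genes were called. In diestrus with saline they were -3.91 (0.135) and 2.36 (0.111), and 3.51% of genes were called. The 95% intervals of the stages overlapped, at -3.92 to -3.36 and -4.21 to -3.61 for Drd1 and 2.03 to 2.33 and 2.11 to 2.60 for Drd2. Over the alternatives that keep every library, the diestrus value of Drd1 ran from -3.91 to -3.57, so the reported value lay at the far end. The Drd1 group means of the stages were close, at 53.0 and 590 CPM in proestrus D2 and D1 and 49.0 and 584 CPM in diestrus.

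In proestrus with ketamine the values were -3.75 for Drd1 (standard error 0.0655) and 2.20 for Drd2 (0.0986), with 5.70% of genes called. In diestrus with ketamine they were -3.62 (0.112) and 2.09 (0.0468), with 14.7% of genes called. Drd1 thus ranged from -3.91 to -3.60 and Drd2 from 2.09 to 2.36 over the 6 comparisons between Cre lines, with adjusted p of at most 5.1e-06 (edgeR). Groups without overlap were found for 6.44%, 5.97%, 5.53% and 4.68% of genes in proestrus and diestrus with saline and in proestrus and diestrus with ketamine.

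**Figure D2:**
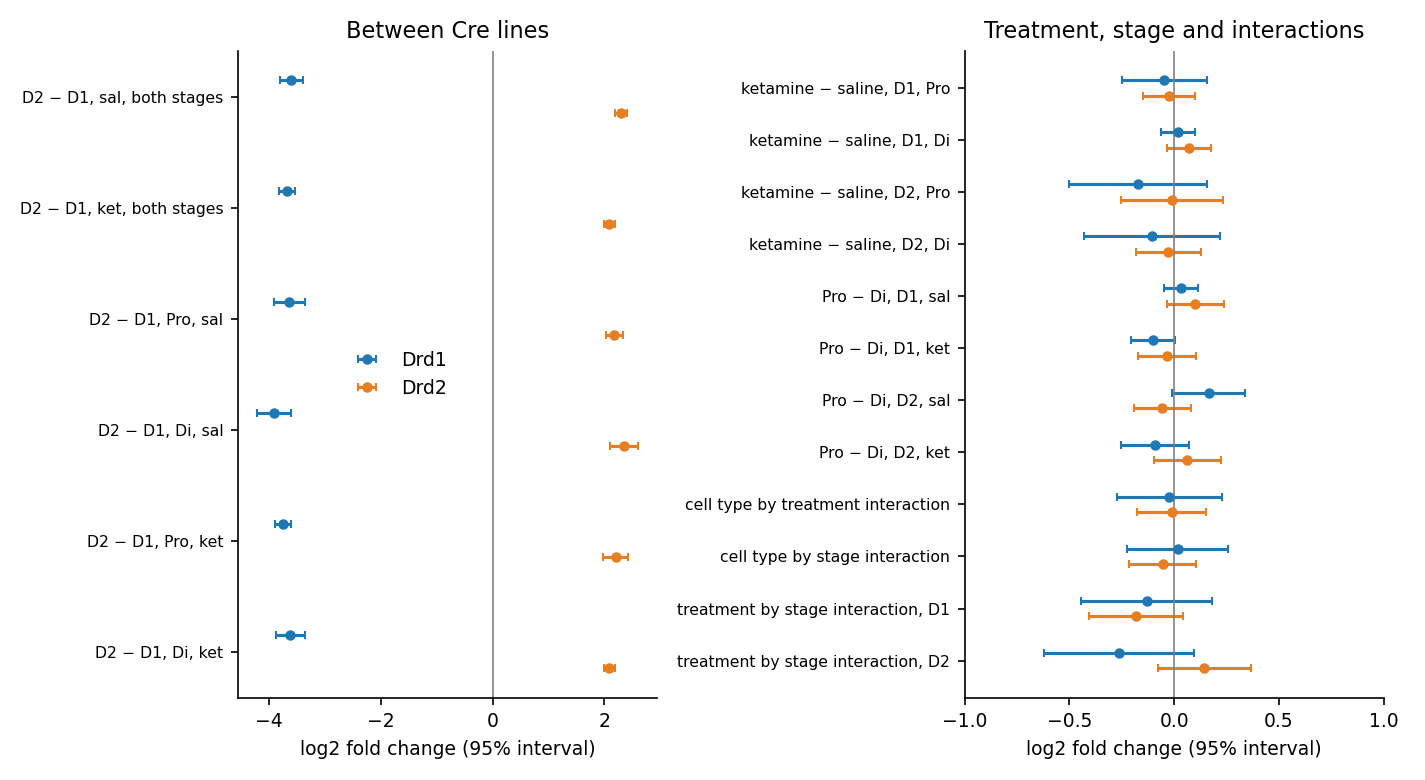
Fitted log2 fold changes of Drd1 (blue) and Drd2 (orange) with 95% intervals from edgeR, for the 6 comparisons of D2 with D1 libraries (left) and for the 12 ketamine, stage and interaction comparisons (right); the horizontal axes differ in scale. Between Cre lines no interval is near 0, and in the right panel every interval includes 0.

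The ratio of Drd2 to Drd1 counts within a library needs no library size, and transcript length cancels when libraries are compared. On the log2 scale it lay between -2.93 and -2.44 in the 20 D1 libraries and between 2.19 and 3.66 in the 19 D2 libraries. Put as counts, every D1 library held 5.41 to 7.61 Drd1 counts per Drd2 count, and every D2 library held 4.56 to 12.7 Drd2 counts per Drd1 count. The D2 libraries were more widely spread, with an SD of 0.376 against 0.113 in D1 libraries. The lowest D2 ratio, 2.19, was that of library 32, and the D1 ratio nearest to 0, -2.44, was that of library 33 (proestrus D1, saline).

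The mean log2 ratio differed between Cre lines by 5.74 (standard error 0.153) in proestrus with saline, 5.98 (0.150) in diestrus with saline, 5.86 (0.176) in proestrus with ketamine and 5.67 (0.248) in diestrus with ketamine. In the 3 comparisons of 5 with 5 libraries the 2-sided exact permutation test gave p = 0.00794, and in that of 4 with 5 libraries p = 0.0159, each the smallest p the design allows. Adjusted over the 12 ratio tests, these became 0.0317 and 0.0476. Neither treatment nor stage gave such a difference: the 8 ketamine and stage differences ran from -0.26 to 0.26, with adjusted p between 0.554 and 0.817 in exact permutation tests.

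**Figure D3:**
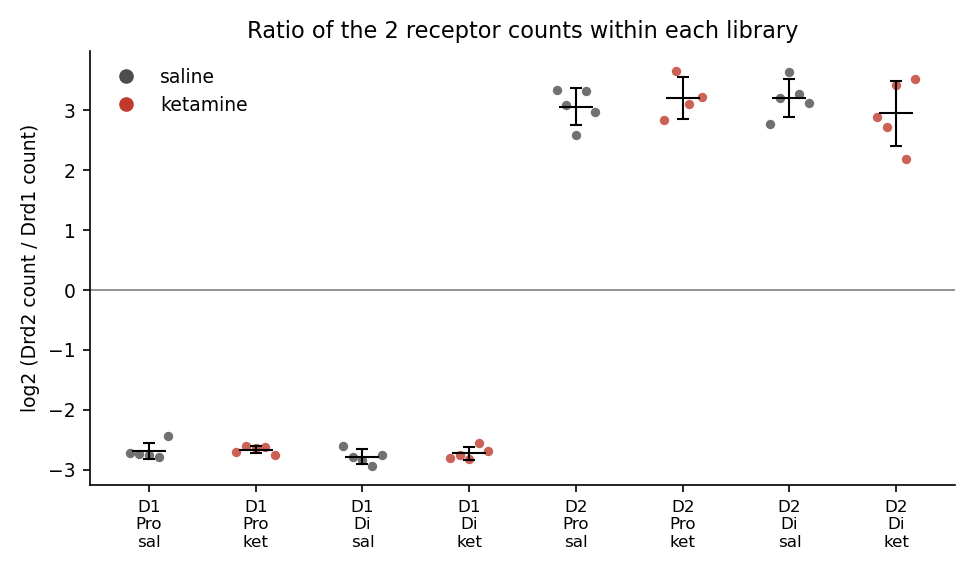
Log2 ratio of Drd2 to Drd1 counts in each library, by group; points are libraries, horizontal bars are group means and error bars are SDs. All D1 libraries lie between -2.93 and -2.44 and all D2 libraries between 2.19 and 3.66, with the D2 groups more widely spread.

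Whether repeated ketamine changed either receptor mRNA in its own cells or in the other pulldown was asked within each Cre line and stage. Neither gene was called in any of the 4 comparisons with edgeR, and saline and ketamine libraries overlapped throughout. In the same fits 0.00759% of genes were called in proestrus D1, 0.0227% in diestrus D1, 0.00745% in proestrus D2 and 0% in diestrus D2 libraries, or 1, 3, 1 and 0 genes. DESeq2 called 18, 10, 1 and 0, and edgeR with the number of surrogate variables from num.sv 32, 3, 2 and 0, with neither receptor among them. For Drd1 in D1 libraries the log2 fold changes were -0.048 in proestrus (95% interval -0.25 to 0.16) and 0.016 in diestrus (-0.065 to 0.098). With 3 surrogate variables, the number from num.sv, the proestrus value was -0.13 with a standard error of 0.0348 and was not called either (adjusted p = 0.239, edgeR). For Drd2 in D2 libraries they were -0.0089 in proestrus (-0.25 to 0.23) and -0.028 in diestrus (-0.18 to 0.13). The intervals leave room for changes of up to about these bounds and do not show that the levels were equal.

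The minor receptor of each pulldown likewise did not pass the test after ketamine. Drd2 in D1 libraries had log2 fold changes of -0.026 in proestrus (95% interval -0.15 to 0.099) and 0.070 in diestrus (-0.036 to 0.18). Drd1 in D2 libraries had -0.17 in proestrus (-0.50 to 0.16) and -0.11 in diestrus (-0.43 to 0.22). The proestrus value was the most negative of the 8 and came with group means of 43.6 ± 4.69 (SD, n = 4) and 53.0 ± 9.84 CPM (SD, n = 5), the second of which includes library 21. With the number of surrogate variables from num.sv it was -0.25 (standard error 0.0643 and adjusted p = 0.561, edgeR). Without surrogate variables it was -0.28, and Drd2 in diestrus D2 libraries, where the ketamine group includes library 32, was -0.19. Neither of these was called (adjusted p = 0.914 and 0.960, edgeR).

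Cycle stage gave the same picture. Neither gene was called in any of the 4 comparisons of proestrus with diestrus by edgeR, in which 0% of genes were called, although 497 to 646 genes had an unadjusted p under 0.05. Without library 6, 289 genes were called in ketamine-treated D2 libraries, with neither Drd1 nor Drd2 among them. Drd1 in D1 libraries had log2 fold changes of 0.033 with saline (95% interval -0.049 to 0.11) and -0.10 with ketamine (-0.21 to 0.0019). Drd2 in D2 libraries had -0.057 with saline (-0.19 to 0.079) and 0.063 with ketamine (-0.099 to 0.22). For the minor receptor, Drd1 in D2 libraries had 0.16 with saline (-0.011 to 0.34) and -0.092 with ketamine (-0.25 to 0.069), and Drd2 in D1 libraries had 0.10 (-0.037 to 0.24) and -0.033 (-0.17 to 0.10). The largest of these 8 values, 0.16 for Drd1 in saline-treated D2 libraries, had an adjusted p of 0.940.

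Tests of the differences between effects were made in a model of all 39 libraries, in which 0% of 14129 genes were called for any of the 4 interactions by edgeR and 442 to 621 genes had an unadjusted p under 0.05. The ketamine effect in D2 minus that in D1 libraries was -0.023 for Drd1 (95% interval -0.27 to 0.23) and -0.013 for Drd2 (-0.18 to 0.15). The stage effect in D2 minus that in D1 libraries was 0.017 (-0.22 to 0.26) and -0.056 (-0.21 to 0.10). The ketamine effect in proestrus minus that in diestrus was -0.13 for Drd1 and -0.18 for Drd2 in D1 libraries, and -0.26 and 0.14 in D2 libraries. None passed the test, and the widest interval, that of Drd1 in D2 libraries, ran from -0.62 to 0.095.

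Both receptor genes varied more between rats of a group than most genes of a similar level. The pooled SD of log2 CPM within groups was 0.186 for Drd1 and 0.176 for Drd2 in D1 libraries, and 0.229 and 0.259 in D2 libraries. Of the genes within 0.5 log2 units of the same mean level, 90.3% and 88.2% had a smaller SD in D1 libraries, and 88.2% and 95.1% in D2 libraries. The median SD of those genes was between 0.0919 and 0.123, so the usual gene varied less within groups than either receptor. The D2 values include libraries 7, 21 and 32 and were not recomputed without them.

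The receptors were also compared from rat to rat within a Cre line. Across the 20 D1 libraries the levels of Drd1 and Drd2 rose together (Pearson's r = 0.78, adjusted permutation p = 0.000267; Spearman's rho = 0.73, adjusted p = 0.00123), and r was 0.77 without libraries 11 and 33, the farthest from the median of Drd1. Across the 19 D2 libraries r was -0.19 (adjusted permutation p = 0.443; rho = -0.35, adjusted p = 0.231), and -0.42 without libraries 7 and 21, which leaves in library 32, the lowest in Drd2. The difference between lines was not tested. All correlations are on log2 CPM, were chosen after the data were seen and were adjusted over 8 relations, and the points share normalization within a library.

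Adora2a followed Drd2 in both lines. Its D1-library level was 177 ± 22.8 CPM and its D2-library level 926 ± 105 CPM with saline (SD, n = 10 each), and 2.36 was its log2 fold change (standard error 0.0646 and adjusted p = 2.01e-15, edgeR). Across D2 libraries its correlation with Drd2 was r = 0.95 (adjusted permutation p = 0.00016; rho = 0.85, adjusted p = 0.00016), and 0.83 without libraries 16 and 32. Across D1 libraries, where both are the minor markers, it was r = 0.77 (adjusted permutation p = 0.000267; rho = 0.77, adjusted p = 0.00064), and 0.74 without libraries 20 and 34.

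**Figure D4:**
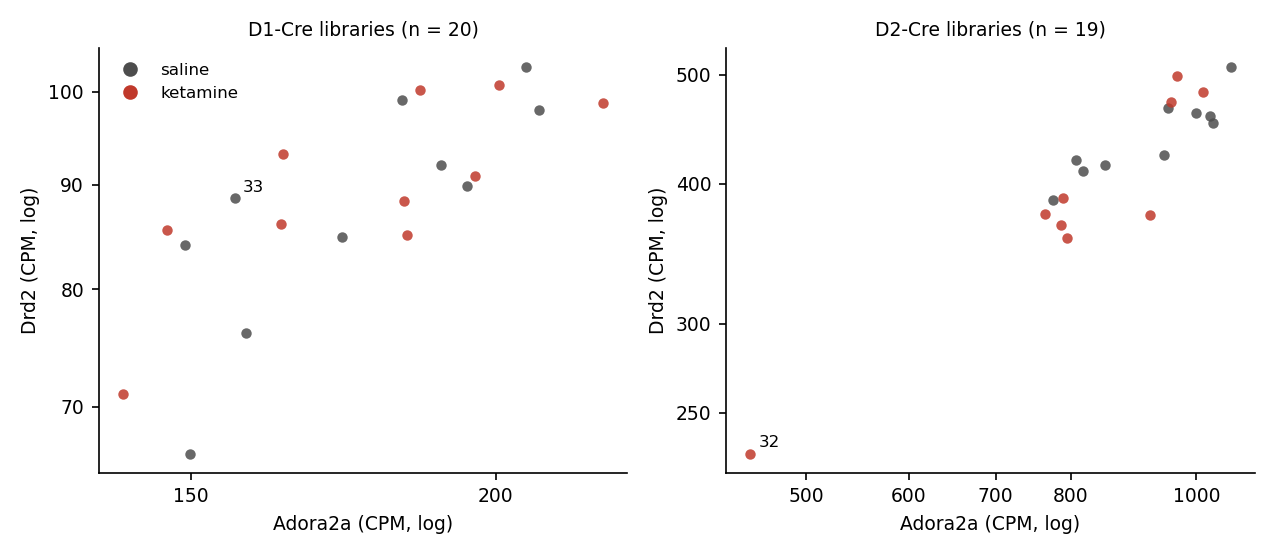
Drd2 against Adora2a in each D1 library (left, n = 20) and each D2 library (right, n = 19), in TMM-normalized CPM on log axes, with saline in grey and ketamine in red; numbered points are libraries named in the text. Drd2 rises with Adora2a in both lines, and library 32 lies at the low end of both genes among D2 libraries.

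Library 32 was low in 3 of the 7 other pathway genes reported here. Besides 230 CPM of Drd2 and 452 CPM of Adora2a, it had the lowest level of all 39 libraries for Adcy5 (445 CPM), the main striatal adenylyl cyclase, for Rgs9 (205 CPM), which speeds the shut-off of Gi/o signalling, and for Ppp1cc (300.3 CPM), a catalytic subunit of protein phosphatase 1. The other 4 were not low there: its Kcnj6 level, 17.8 CPM, was the highest of its group, and Gsk3b (33.2 CPM), Flot1 (121 CPM) and Maoa (42.2 CPM) lay within the range of the other libraries of the group. Its Gad1 level, 1201 CPM, was the highest of its group, whose lowest was 970 CPM. Gad1 encodes the enzyme that makes GABA and is used by MSNs and by GABAergic interneurons.

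Markers of other cells moved with some of these values. Of the non-neuronal marker lists, 6 of 19 genes are reported here (the astrocyte genes Gfap and Gja1, the oligodendrocyte gene Mog, the microglia genes Aif1 and Tmem119, and the endothelial gene Flt1), and none was at 0 in any library. Their summed level ran from 39.2 to 60.8 CPM in proestrus D1 with saline, 52.2 to 56.8 with ketamine, 42.1 to 59.95 in diestrus D1 with saline and 44.1 to 58.7 with ketamine. In D2 libraries it ran from 56.5 to 113 CPM in proestrus with saline, 49.7 to 96.8 with ketamine, 58.9 to 145 in diestrus with saline and 59.7 to 103 with ketamine. The 5 highest sums were in D2 libraries 7, 21, 32, 6 and 16, which include both libraries with the most Drd1 and the library with the least Drd2. Most of the sum came from the astrocyte genes: over D2 libraries Gfap and Gja1 had means of 26.1 and 29.4 CPM, and the sum 73.3 CPM. Correlations were not made for each marker.

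Across the 19 D2 libraries Drd1 rose with this sum (r = 0.78, adjusted permutation p = 0.00068; rho = 0.67, adjusted p = 0.00436), and r was 0.53 without libraries 7 and 21 and 0.84 with group means removed. Drd2 in the same libraries had r = -0.28 (adjusted permutation p = 0.364; rho = -0.053, adjusted p = 0.832), and -0.57 without libraries 7 and 21, the highest in the sum, with library 32 still included. In D1 libraries the minor receptor, Drd2, had r = -0.43 (adjusted permutation p = 0.0696; rho = -0.25, adjusted p = 0.387), and -0.31 without libraries 3 and 17. Drd1 in D1 libraries had r = -0.18 (adjusted permutation p = 0.443; rho = -0.095, adjusted p = 0.799), and -0.016 without the same libraries. The part of other cells' RNA in the receptor levels was not tested.

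**Figure D5:**
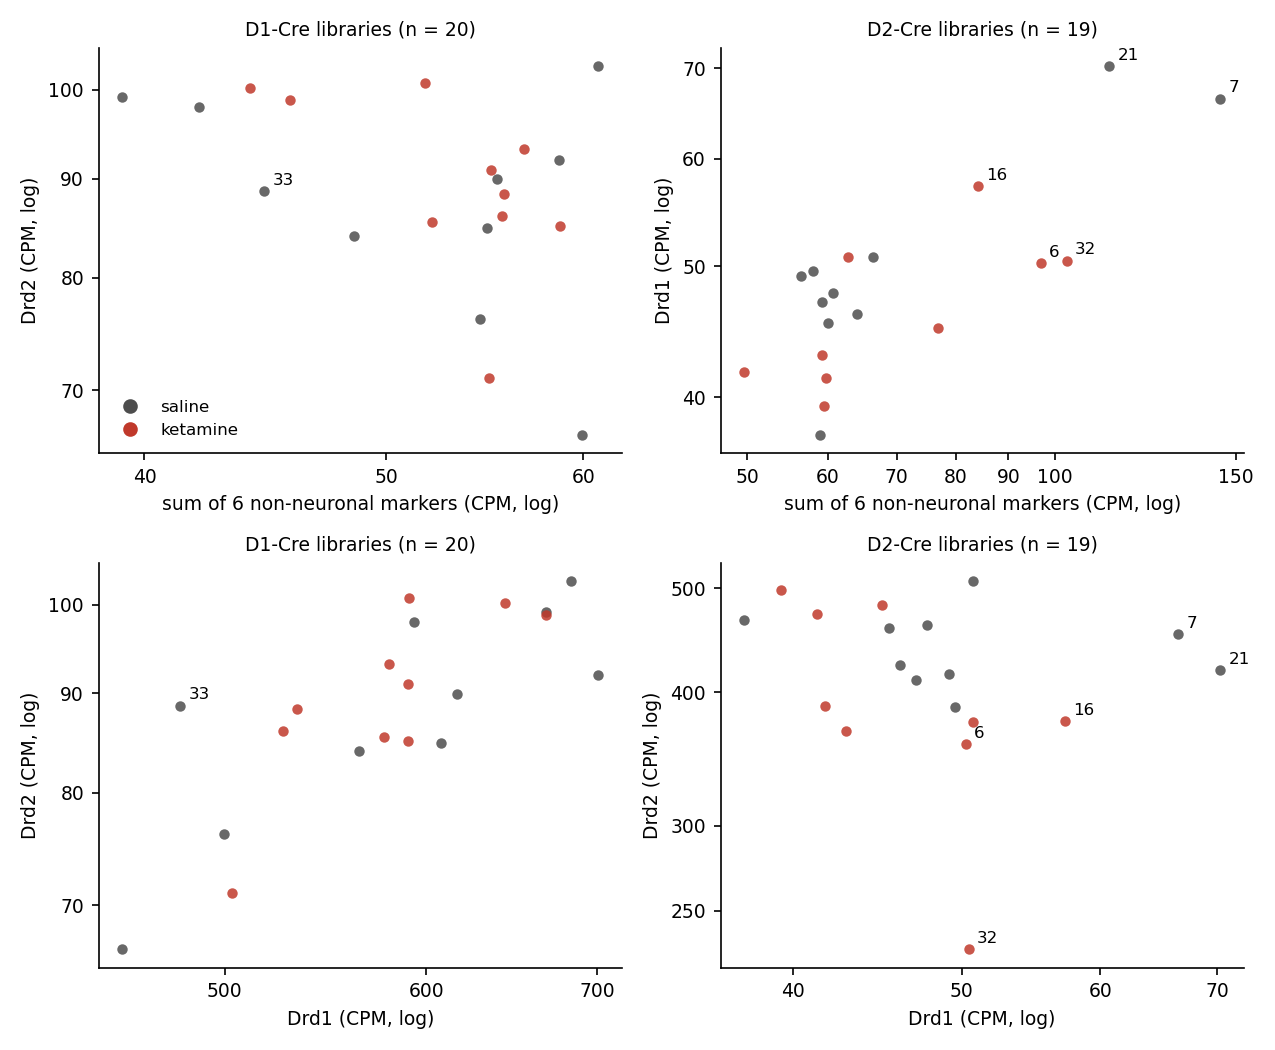
Receptor levels within each Cre line, in TMM-normalized CPM on log axes: the minor receptor against the sum of the 6 non-neuronal markers (top) and Drd2 against Drd1 (bottom), in D1 libraries (left, n = 20) and D2 libraries (right, n = 19), with saline in grey and ketamine in red. In D2 libraries Drd1 rises with the marker sum (r = 0.78), and in D1 libraries Drd2 rises with Drd1 (r = 0.78); numbered points are libraries named in the text.

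Between Cre lines with saline over both stages, 3 of these 6 genes were called and these were higher in D2 libraries, where 13.6% of all genes were: Gja1 (log2 fold change 0.49), Mog (0.44) and Flt1 (0.70). Within a stage none of the 6 was called with saline, against 5.67% of all genes in proestrus and 3.51% in diestrus. Gja1, Mog and Flt1 had 0.44, 0.49 and 0.82 in proestrus, but -0.014, -0.058 and 0.10 in diestrus. With ketamine over both stages 2 of the 6, Gja1 (0.41) and Flt1 (0.74), were higher, against 9.18% of all genes. Within proestrus with ketamine none of the 6 was called, against 5.70% of all genes. In diestrus with ketamine Gfap (0.43), Gja1 (0.66), Mog (0.43) and Flt1 (1.02) were called and higher in D2 libraries. Aif1 and Tmem119 were not called there, and 14.7% of all genes were. Libraries 16 and 32 belong to that D2 group. The interneuron genes Sst and Nos1 were lower in D2 libraries, where 12.9% of all genes were with saline and 11.0% with ketamine, with log2 fold changes of -1.54 and -1.67 with saline and -1.57 and -1.80 with ketamine (all called by edgeR). They are 2 of the 6 markers listed for interneurons other than cholinergic ones, and the other 4 are not analysed here. None of the 5 cholinergic interneuron markers and none of the 4 excitatory neuron markers could be paired, so their levels are not analysed here.

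Of 54 other genes of dopamine synthesis, receptor coupling and cAMP signalling, 7 are reported here, and Drd3, Drd4 and Drd5 are not analysed here. Between Cre lines with saline, 1 of the 7 was higher and 2 were lower in D2 libraries, where 13.6% and 12.9% of all genes were, with a median log2 fold change of -0.054 against 0.0028 over all genes. Rgs9 was higher (0.21, standard error 0.0460, adjusted p = 0.00254, edgeR). Kcnj6, a potassium channel subunit opened by Gβγ, was lower (-0.70, standard error 0.223, adjusted p = 0.0370), as was Flot1, a membrane raft protein (-0.11, standard error 0.0435, adjusted p = 0.0706). In a single model of all 39 libraries, Rgs9, Kcnj6 and Flot1 were not called (adjusted p = 0.919, 0.224 and 0.248, edgeR). Without library 17 or 39 Kcnj6 was not called (adjusted p = 0.156 and 0.138), and without library 13, 17, 25 or 27 Flot1 was not (0.104 to 0.128).

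With ketamine, none of the 7 was higher and 3 were lower in D2 libraries, where 9.18% and 11.0% of all genes were: Kcnj6 (-0.46, adjusted p = 0.0739), Ppp1cc (-0.12, adjusted p = 0.00345) and Maoa, which oxidizes monoamines (-0.14, adjusted p = 0.0122, all edgeR), with a median of -0.10 over the list. Adcy5, which acts downstream of both receptors, had a log2 fold change of 0.066 with saline (adjusted p = 0.238) and -0.10 with ketamine (adjusted p = 0.114, edgeR), neither called. Of the 4 comparisons within a stage Adcy5 was called in 1, diestrus with ketamine, where it was lower in D2 libraries (-0.16, adjusted p = 0.0371, edgeR). That D2 group includes library 32, at 445 CPM of Adcy5, and its other libraries lay between 608 and 857 CPM. Library 32 was also the lowest in Ppp1cc, and neither gene was refitted without it. The list's changes were thus far smaller than those of the receptors. None of the 7 was called by edgeR in any ketamine, stage or interaction comparison, where 0% to 0.0227% of all genes were. The absence of calls is therefore not particular to this list.

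Among 9035 genes with at least 10 CPM on average, the gene whose log2 CPM was most like that of Drd2 over the 39 libraries was Adora2a (Pearson's r = 0.996). By Spearman's rho Adora2a stood at rank 3 (0.951), behind ENSRNOG00000049580 (0.981) and ENSRNOG00000055673 (0.952). The gene most like Drd1 could not be paired with a symbol (ENSRNOG00000026036, r = 0.997), and of 9035 genes Drd2 was the least like Drd1 by Pearson's r (-0.97). Its Spearman rank was 8982 of 9035 (rho = -0.69), so Drd2 was not the last by that measure. These coefficients mostly express the split between Cre lines. With the 8 group means removed, ENSRNOG00000026036 was still most like Drd1 (r = 0.82), ENSRNOG00000049580, also without a paired symbol, was most like Drd2 (r = 0.96), and Adora2a stood at rank 26 (r = 0.89). On that scale Drd1 and Drd2 had r = 0.11 over the 39 libraries, but 0.81 within D1 libraries and -0.30 within D2 libraries. These values are descriptions with no test.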

How the data were processed

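The authors trimmed reads with fastp 0.23.4, checked them with FastQC 0.12.1, and quantified transcripts with Salmon 1.10.2 on mRatBN7.2, with corrections for sequence and GC bias. The deposited values are expected counts per gene, which the authors summed with tximport and which are whole numbers, not normalized. Input libraries are not used here. Corrections for transcript length and GC content were not made.

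For each comparison, genes passed filterByExpr (minimum count 10) and TMM normalization before the test with edgeR 4.0.16 (robust quasi-likelihood, R 4.3.3) with 2 surrogate variables from sva 3.50.0 and Benjamini-Hochberg adjustment over all genes tested. The threshold for a call was an adjusted p of 0.1. Standard errors and 95% intervals were derived from the quasi-likelihood F statistic. Ratios of the receptor counts were compared by 2-sided exact permutation tests. Correlations were tested with 100000 permutations. Only the edgeR fit between Cre lines in proestrus with saline was tested on simulated counts, which held no hidden factor. The ratio tests, correlations and interactions were not tested in this way.

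The receptors and gene lists were chosen with earlier results of these data known. Named genes were Drd1, Drd2, the list genes called between saline-treated lines, and the genes most like each receptor. The other genes of library 32, the genes called after ketamine, Adcy5 and the correlations were chosen after their values were seen. Identifiers were paired with symbols for 1966 of 23978 genes, through the authors' result tables, whose fold changes and p-values were not used. Some list genes are not reported here and enter no list count or sum. The identifiers of Drd1 and Drd2 were given with the question, and their levels go with the Cre line labels in every library. The labels give no litter or batch, and the authors state a single flow cell. The edgeR p-values, standard errors and intervals measure the spread between rats that is left after the surrogate variables. These variables were estimated from the same libraries, so the errors can be narrower than the raw spread between rats. The permutation tests make no such adjustment.

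The alternatives were no surrogate variables, the num.sv number of them, DESeq2 1.42.0, DESeq2 size factors, no filter, a model of all 39 libraries, library numbers in blocks of 8 as covariates, and leaving out each library. Of the list genes, only Rgs9, Kcnj6 and Flot1 between saline-treated lines were refitted in this way. For the ratio the alternatives were 10 counts added to each gene, medians, and each library left out. Normalization by total counts was added after the data were seen.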

Additional observations from a re-analysis of the deposited data

Results flagged for a closer look

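In library 33 (proestrus D1, saline) the log2 ratio of Drd2 to Drd1 was -2.44, and the other 4 libraries of its group lay between -2.78 and -2.71. The gap to the nearest of them was 0.811 of the group's range, above the critical value of 0.71 for 5 libraries. In library 21 (proestrus D2, saline) Drd1 was at 70.3 CPM and the other 4 libraries lay between 45.4 and 50.8 CPM, a gap of 0.784 of the range. Library 21 also had the second highest sum of non-neuronal markers, 113 CPM, and the part of that RNA in its Drd1 level was not tested. The Drd2 level of library 32, 230 CPM, had a gap of 0.575 of its group's range and did not pass the same limit. In all, 24 combinations of group and measure were examined, and chance flags about 1 in 20.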

How the results depend on the processing

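Between Cre lines, both receptors kept their direction and stayed called in all 84 values from alternatives that keep every library and in all 156 with 1 library left out. Over the alternatives Drd1 lay between -4.07 and -3.48 and Drd2 between 1.99 and 2.42. In the ketamine, stage and interaction comparisons neither gene was called in any of 160 and 468 such values, but 7 and 34 of them changed sign. The reversed values reached up to 0.088, for Drd2 with ketamine in proestrus D2 with 1 library left out. That is as large as several of the reported effects.

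The changes of sign with every library kept were, for Drd2 with ketamine in proestrus D2, 0.043 with as many surrogate variables as num.sv gives and 0.066 in the single model. For Drd1 with ketamine in diestrus D2 they were 0.00236 without surrogate variables, 0.072 in the single model and 0.029 with blocks of library numbers. With the number from num.sv, Drd2 by stage in ketamine-treated D1 was 0.00390 and the interaction of Drd1 between Cre line and treatment was 0.018. The cause was not tested.

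With 1 library left out, the ketamine effect on Drd1 ran from -0.17 to 0.00792 in proestrus D1, -0.017 to 0.055 in diestrus D1 and -0.18 to 0.083 in diestrus D2. That on Drd2 ran from -0.11 to 0.00960 in proestrus D1, -0.21 to 0.088 in proestrus D2 and -0.075 to 0.072 in diestrus D2. Stage effects ran from -0.014 to 0.066 for Drd1 in D1 with saline, and for Drd2 with ketamine from -0.12 to 0.069 in D1 and -0.030 to 0.094 in D2. Interactions of Cre line with treatment ran from -0.062 to 0.064 for Drd1 and -0.044 to 0.021 for Drd2, and that of Cre line with stage from -0.044 to 0.067 for Drd1. The ketamine difference of the log2 ratio in proestrus ran from -0.00793 to 0.27 in D2 and -0.000783 to 0.085 in D1.

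The ratio between Cre lines was 5.81, 5.98, 5.80 and 5.64 with medians, in the order of the text, each with an adjusted p of 0.143 in exact permutation tests. In proestrus with ketamine it ran from 5.71 to 5.99 with 1 library left out, and without any 1 of the 4 D2 libraries the adjusted p was 0.107, since 3 against 5 libraries allow no smaller p. Spearman in place of Pearson kept 3 of the 5 genes most like Drd2 over all libraries, and 3 of 5 for each receptor with group means removed. Total counts or DESeq2 size factors moved no group mean by more than its SD.

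No library number is shared between groups, so numbers pair no rats. Blocks of 8 consecutive numbers as a covariate changed no call of Drd1 or Drd2.

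In the fits that gave Drd1 and Drd2, counts of genes called depended on the setting. Between Cre lines in diestrus with saline they were 467 as reported, 826 with num.sv, 958 in the single model, 1076 without surrogate variables and 1348 with blocks, and in proestrus with saline 753 against 1249 in the single model. In diestrus with ketamine they were 1968 against 611 without surrogate variables and 671 with blocks, and in proestrus with ketamine 760 against 447 without surrogate variables, 394 with blocks and 1613 with num.sv. Over both stages, ketamine gave 2795 against 1732 without surrogate variables and saline 3637 against 2197 in the single model. With DESeq2, stage comparisons called 0 to 11 genes and interactions 1 to 3. With 1 library left out, the counts between lines ran from 278 to 1667 and 235 to 977 in proestrus and diestrus with saline, and from 536 to 1243 and 1425 to 2177 with ketamine. Without library 6, 289 genes were called between stages in ketamine-treated D2 libraries, and Drd1 was not among them (-0.23, adjusted p = 0.204, edgeR).

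Limits: depth was lowest in library 39, most genes had no paired symbol, and near-0 directions above are not determined.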
